A study of Mus musculus with 38 samples.

Results

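The desmosomal cadherins are the 9 genes Dsc1, Dsc2, Dsc3, Dsg1a, Dsg1b, Dsg1c, Dsg2, Dsg3 and Dsg4, which lie next to each other on mouse chromosome 18. They were chosen by name, and all 9 were found once each among the 22367 protein-coding genes that GENCODE vM1 places on chromosomes 1 to 19, X and Y of NCBI37/mm9. The peaks of 11 lists were examined over the cluster, chr18:20119431-20763022, and 100 kb on each side of it, 844 kb in all, which is called the window here. The question was where SATB1 and CTCF were found in the skin, where these genes are used, against thymocytes and brain.

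SATB1 is a nuclear protein that binds base-unpairing regions (BURs), stretches of DNA whose strands come apart readily under torsion. The BUR reference map lists thymus DNA fragments bound by SATB1 protein in vitro. In urea ChIP-seq, the crosslinked chromatin is first spun through concentrated urea to strip loosely held proteins and is then immunoprecipitated, so that protein bound directly to DNA is kept, whereas standard ChIP-seq does without this step. SATB1 was profiled by urea ChIP-seq in skin, thymocytes and brain and by standard ChIP-seq in thymocytes, with 2 lists each, and 1 thymocyte and 1 skin list were analysed for CTCF, a zinc finger protein that binds its own motif and anchors chromatin loops, also from urea ChIP-seq. All samples other than the in vitro map came from wild-type C57BL/6 mice. For the skin the labels give P13 while the protocol describes epidermal keratinocytes at P5, and the methods of the paper give newborn mice. For the brain the labels give 5 weeks for replicate 1 and 6 weeks for replicate 2, while the protocol describes cortex at P13. The methods of the paper give frontal cortex of mice at least 6 weeks old. Thymocytes are labelled P13, although the titles of standard replicate 1 and of the CTCF list give 6 weeks. The urea SATB1 lists and standard replicate 2 used the antibody 1583D and standard replicate 1 another one, ab109122. The reporting checklist of the study describes replicates as biological and from separate animals, but the labels tie no list to an animal. The titles give the 2 urea SATB1 lists of each tissue a common experiment number. Within these pairs the titles name 55 and 60 s for skin and 10 and 12 cycles for brain. For thymocytes they name 4 and 2 µl after the antibody. The p-values therefore measure only the spread between these lists. Peak lists hold no expression values, and the tissues could not be checked against marker genes.

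Desmosomes are the spot junctions that tie the keratin filaments of neighbouring epithelial cells together, and they are most abundant in tissues under mechanical load such as epidermis and heart. Their adhesive part is made of desmocollins (Dsc) and desmogleins (Dsg), single-pass cadherins whose extracellular domains meet between the cells and whose tails bind plakoglobin and plakophilins. Dsg2 and Dsc2 are the widespread forms, found also in heart and simple epithelia, whereas the others belong to stratified epithelia and their order of use follows the layers, with Dsg3 and Dsc3 in the basal layers and the Dsg1 proteins and Dsc1 in the upper ones. Dsg4 is best known from the hair follicle. The mouse has 3 Dsg1 genes, which arose by duplication.

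The desmocollins occupied one end of the cluster, in the order Dsc3, Dsc2, Dsc1, and were transcribed from the minus strand, and the desmogleins followed in the order Dsg1c, Dsg1a, Dsg1b, Dsg4, Dsg3, Dsg2 on the plus strand. The genes were 28.9 kb (Dsc2) to 46.4 kb (Dsg2) long. The space between Dsc1 and Dsg1c, 132.6 kb, was the widest of the cluster, and the other neighbours were 11.2 kb (Dsg3 and Dsg2) to 38.5 kb (Dsg4 and Dsg3) apart. Reads were kept by the authors only where they matched the genome once, so the share of 50-base stretches that occur once in the genome was computed for each gene. It was 79.4% for Dsg1c, 76.8% for Dsg1a and 75.0% for Dsg1b, and between 94.5% (Dsg3) and 99.7% (Dsc1) for the other 6 genes. The rest of the 3 Dsg1 genes gave no unique exact match to reads of this length in any list.

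SATB1 was found in the window in all 6 urea lists, and in none of the standard ones. The window held 74 BURs, 4 and 3 skin SATB1 peaks, 18 and 15 thymocyte peaks, and 44 and 41 brain peaks (replicates 1 and 2), but 0 and 0 standard SATB1 peaks in thymocytes. The CTCF lists had 1 peak in thymocytes and 6 in skin. The whole lists differed in the same order, with 11210 and 10846 peaks in skin, 45049 and 38882 in thymocytes and 117963 and 109154 in brain. The lists hold no read counts. The paper describes the total aligned reads of urea ChIP-seq as similar between these cell types, and the part of depth in the numbers of peaks was not tested here. Per Mb, the window held 0.857 to 1.22 times as many urea SATB1 peaks as the genome, and 0.966 times as many BURs.

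**Figure D1:**
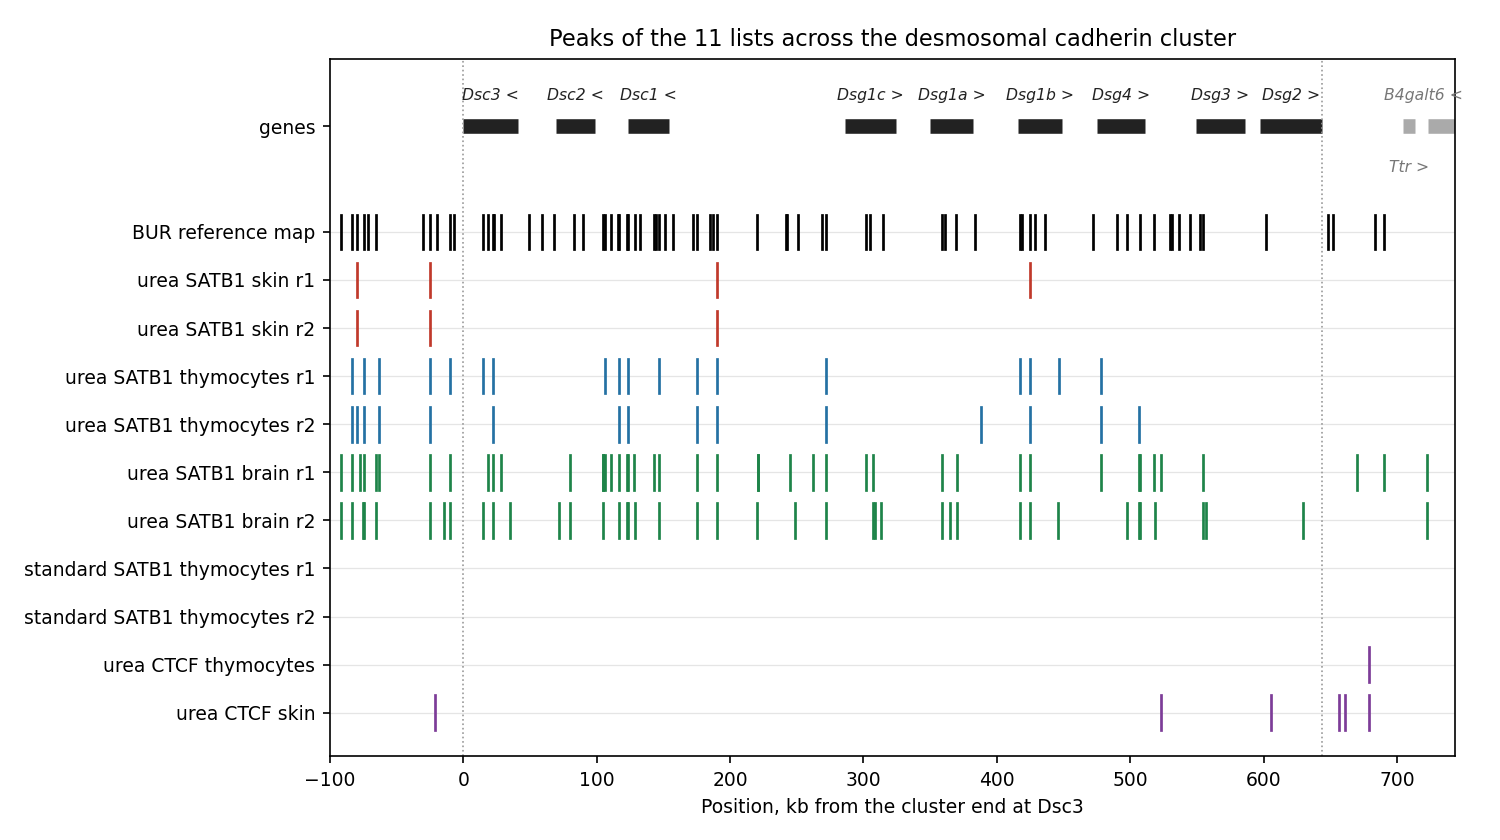
Positions of the peaks of the 11 lists in the window, in kb from the end of the cluster at Dsc3, with 1 tick per peak and r1 and r2 for the replicates. Black bars are the 9 genes (< minus strand, > plus strand), grey bars their neighbours, and dotted lines the ends of the cluster. Skin SATB1 peaks recurred at 3 positions, the standard SATB1 rows are empty, and 6 of the 7 CTCF peaks lie from the space between Dsg4 and Dsg3 onward.

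A BUR was counted as bound when a SATB1 peak overlapped it by at least 1 bp. In skin, 4 and 3 of the 74 BURs were bound, or 5.41% and 4.05%, against 3.68% and 3.61% of all 238380 BURs in the same lists. In thymocytes 15 and 11 were bound, or 20.3% and 14.9%, against 14.3% and 12.6% of all BURs. In brain 31 and 26 were bound, or 41.9% and 35.1%, against 36.2% and 33.4%. The 3 tissues did not overlap, with means of 4.73% ± 0.956 in skin, 17.6% ± 3.82 in thymocytes and 38.5% ± 4.78 in brain (SD, n = 2 each). The order skin, thymocytes, brain had p = 0.0111 (Jonckheere-Terpstra statistic, exact permutation test, one-sided, n = 2 lists per tissue), the smallest p that 90 assignments allow. This direction was taken from earlier results on the same lists and is also the order of their lengths, so the p is no independent support for it.

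In the window, the order was not kept in lists of equal size. When every list was reduced to the 10846 peaks of highest −log10 q, the size of the smallest list, the window had 4 and 3 bound BURs in skin, 3 and 5 in thymocytes and 4 and 4 in brain. The means were then 4.73%, 5.41% and 5.41%, and the order no longer passed the test (p = 0.333, exact permutation test, n = 2 lists per tissue). Among all BURs the reduced lists kept the order. They bound 3.58% and 3.61% in skin, 4.22% and 4.21% in thymocytes and 4.57% and 4.54% in brain.

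Skin was also compared with the other tissues after each list was divided by its own genome-wide share. The ratio of the window to all BURs was 1.47 and 1.12 in skin, 1.42 and 1.18 in thymocytes, and 1.16 and 1.05 in brain. All 6 ratios were above 1. Skin replicate 1 had the highest of them, and skin replicate 2 lay below both thymocyte lists and between the 2 brain lists. The mean log2 ratio of skin exceeded that of thymocytes and brain by 0.11 (p = 0.667, exact two-sided permutation test, n = 2 against 4 lists, which cannot go below 0.0667). Without the flanks the ratios were 0.922 and 0.470 in skin, 1.31 and 0.940 in thymocytes, and 1.12 and 1.02 in brain. The difference then turned to −0.73 (p = 0.0667, exact permutation test), and 1 of the 59 BURs of the cluster itself was bound in both skin lists. With the flanks, leaving out skin replicate 1 turned the difference to −0.088.

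**Figure D2:**
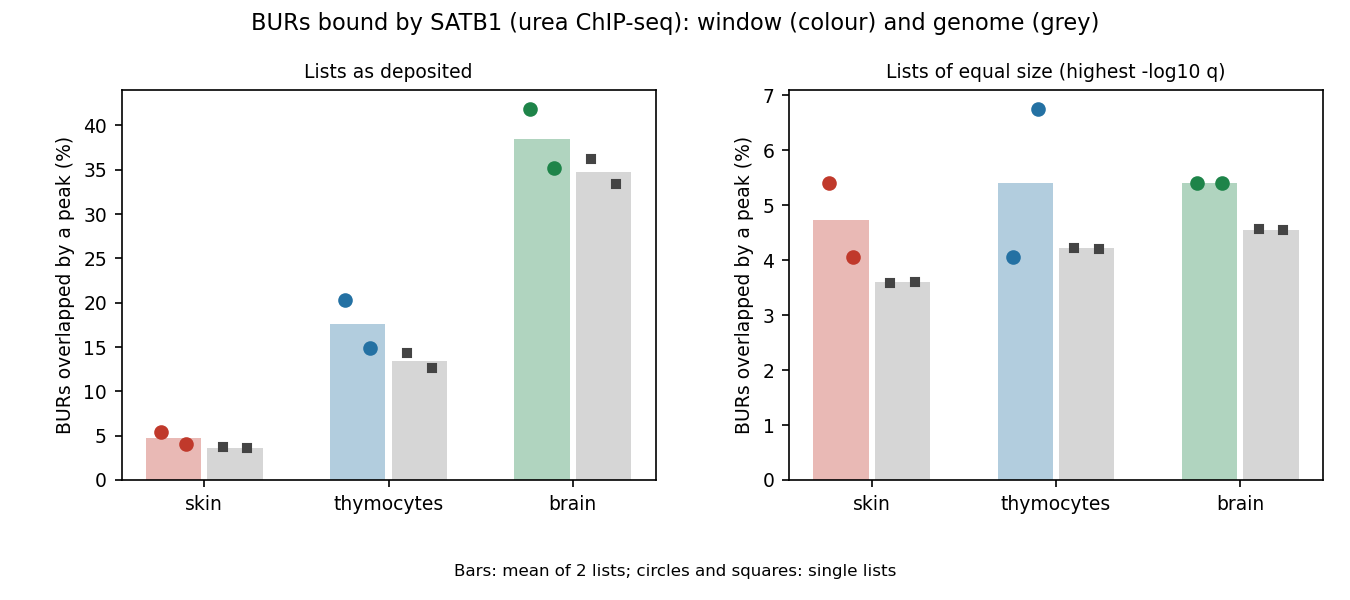
Percent of BURs overlapped by a urea SATB1 peak in the window (colour, circles) and among all BURs (grey, squares), for the lists as deposited and for lists of 10846 peaks each. Bars are means of 2 lists and the y axes differ. The deposited lists rise from 4.73% in skin to 38.5% in brain in the window, and the lists of equal size lie between 4.05% and 6.76%.

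Overlapping SATB1 peaks of the 6 urea lists were merged into 58 sites. Of these, 24 were in 1 list only and 2 in all 6. Of the 58 sites, 4 had a skin peak, 21 a thymocyte peak and 56 a brain peak in at least 1 list. They lay outside genes in 29 cases, within introns in 26, and touched an exon in 3, in Dsc2, Dsc1 and Dsg4. Replicate lists shared 3 of 4 peaks in skin, 12 of 18 and 12 of 15 in thymocytes, and 29 of 44 and 28 of 41 in brain, which is 65.9% to 100% and compares with 73.3% to 84.9% over the whole lists.

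The skin peaks that both lists held were 3, and none was inside a desmosomal cadherin gene. The first, chr18:20094276-20095053, lay 24.4 kb beyond the 3′ end of Dsc3, between genes, on a BUR of 501 bp. Its fold enrichment, the height of the summit over the local background, was 8.38 and 5.32 in skin, 19.7 and 19.4 in thymocytes, and 19.6 and 21.4 in brain. It was present in all 6 lists. Enrichment is not scaled between samples, and within each list the site stood at percentile 53.2 and 22.2 in skin, 93.3 and 90.9 in thymocytes, and 96.2 and 97.9 in brain. It was also the only site that all 6 lists of equal size held.

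The second skin site, chr18:20309019-20309601, lay in the space between the desmocollins and the desmogleins, 36 kb upstream of the start of Dsc1. Its fold enrichment was 10.1 and 8.39 in skin, 11.6 and 16.8 in thymocytes, and 16.5 and 14.6 in brain, so it was again in all 6 lists. It had the highest skin enrichment of the window (9.25 ± 1.21, SD, n = 2), and the BUR below it had the highest in vitro enrichment of the 74, 14.7. Its place among the peaks of each list was percentile 62.3 and 54.8 in skin, 74.5 and 86.8 in thymocytes, and 91.4 and 87.2 in brain.

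The third, chr18:20039788-20040166, lay 79.3 kb beyond the 3′ end of Dsc3 and differed from the other two. Both skin lists held it, with enrichments of 7.13 and 7.67, and so did thymocyte replicate 2 with 9.62, whereas thymocyte replicate 1 and both brain lists had no peak there. The BUR there, of 540 bp and 74.8% A and T, had an in vitro enrichment of 8.26. Among all BURs bound in both skin lists, 6.97% were in neither brain list (514 of 7379), and in the window it was 1 of 3. A further skin peak, chr18:20544109-20544741, named after its values were seen, was in skin replicate 1 alone (4.61). It lay in an intron of Dsg1b, 9.20 kb downstream of the start, and the same site had 9.15 and 8.32 in thymocytes and 16.5 and 16.2 in brain. It was the only skin peak within any of the 9 genes.

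Of the sites in both thymocyte lists, 12 in all, every one had a peak in at least 1 brain list, as did 97.4% of such sites in the genome, and 10 were in both. The highest mean enrichment in thymocytes was that of the site 24.4 kb beyond Dsc3, at 19.5 ± 0.247 (SD, n = 2). It was followed by chr18:20035403-20035964, further out on the same flank, with 21.5 and 12.8, and by the site between Dsc1 and Dsg1c with 14.2 ± 3.69. In brain, 28 sites were in both lists, and 14 of them had no thymocyte or skin peak, near the 52.7% of such sites in the genome. The site chr18:20035403-20035964 led there with 21.6 ± 2.61, before the site 24.4 kb beyond Dsc3 with 20.5 ± 1.29, and no skin list held it. The next, chr18:20053372-20053941, also on the Dsc3 flank, had 17.7 and 18.9 in brain and no peak in the other 2 tissues. These 3 sites on the flank beyond Dsc3 lay within 59.7 kb of each other, in a stretch with no annotated gene.

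**Figure D3:**
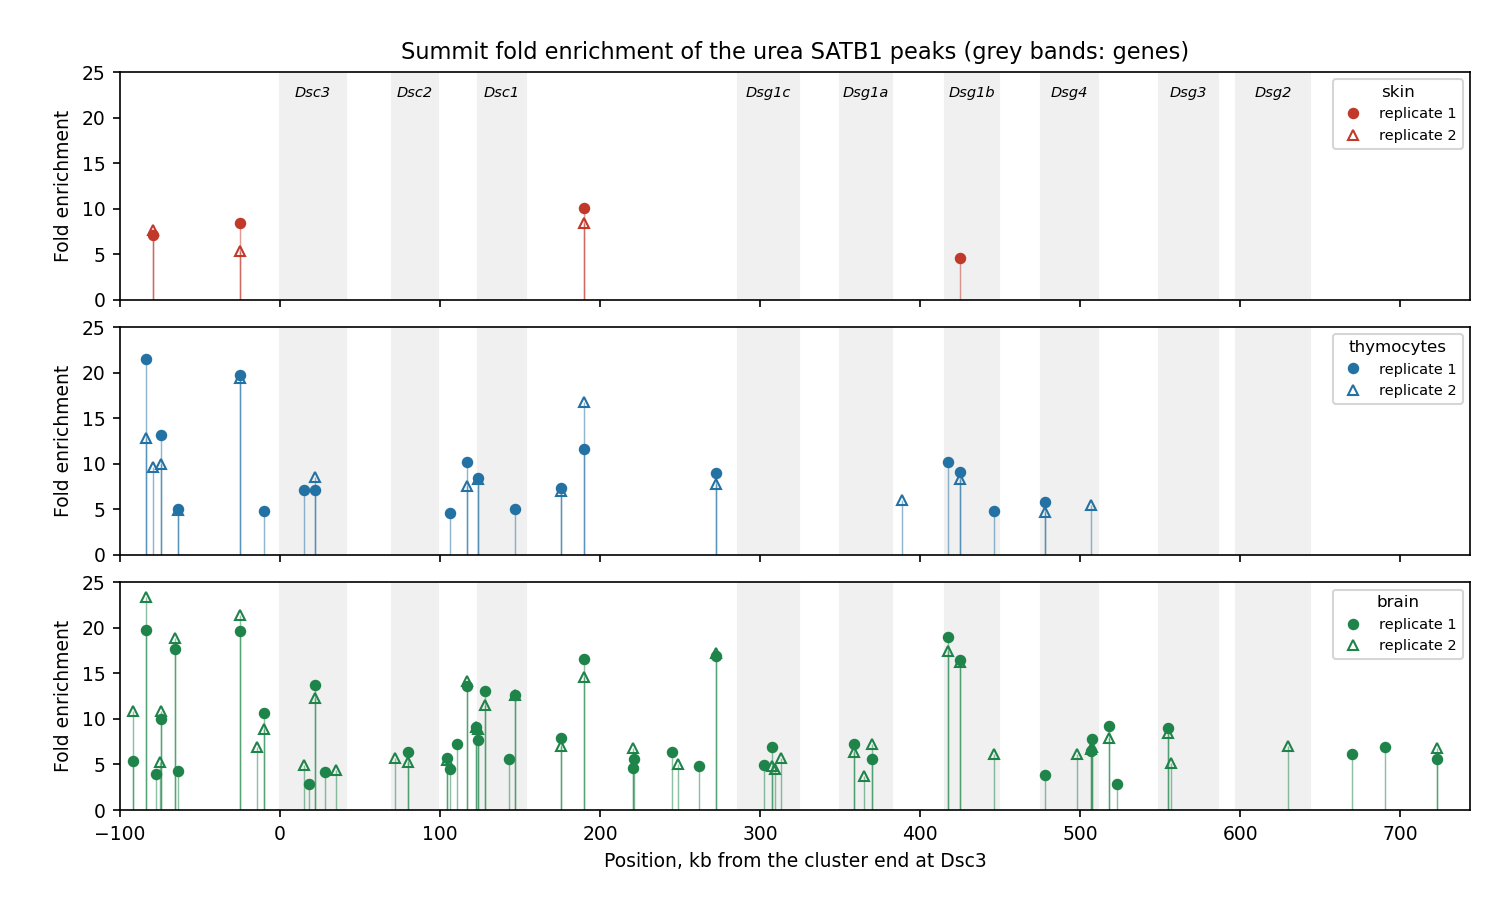
Summit fold enrichment of each urea SATB1 site of the window against its position, in kb from the end of the cluster at Dsc3, by tissue and replicate. Grey bands are the 9 genes. The 4 skin sites lie between 4.61 and 10.1, the highest thymocyte and brain values lie beyond the Dsc3 end, and no thymocyte peak is seen from Dsg3 onward.

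Within the genes, SATB1 peaks were found mainly in the brain lists, in fewer genes in the thymocyte lists, and in 1 gene in skin. In brain 8 of the 9 genes had a peak in both lists, where 31% of all protein-coding genes did, in thymocytes 3 of 9 against 20.6%, and in skin 0 of 9 against 9.53%. These shares depend on gene length, which was not matched. In the lists of equal size no gene of the 9 had a peak in both lists of any tissue.

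Among the desmocollins, Dsc3, the form of the basal epidermal layers, had 5 BURs and 3 and 3 brain peaks, 2 and 1 thymocyte peaks and none in skin. Its intronic site chr18:20141260-20141844 was in all thymocyte and brain lists, with 7.10 and 8.51 in thymocytes and 13.8 and 12.2 in brain. Dsc2, the widespread desmocollin, had 2 BURs and 1 and 2 brain peaks, none on a BUR, and none in the other tissues. Dsc1, the form of the upper layers, had 6 BURs, the most of any of the 9 genes, with 3 and 2 brain peaks and 1 thymocyte peak in replicate 1.

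The 3 Dsg1 genes, whose products belong to the upper epidermal layers, differed among themselves. Dsg1b had 5 BURs, 3 and 1 thymocyte peaks, 2 and 3 brain peaks and the skin peak of replicate 1, whereas Dsg1c and Dsg1a had 3 BURs each, 2 and 3 brain peaks each and no peak in thymocytes or skin. The 2 strongest sites of Dsg1b were both on BURs in introns, at most 9.20 kb downstream of its start. That at chr18:20536700-20537260, 1.75 kb downstream of the start, had 18.9 and 17.5 in brain and 10.2 in thymocyte replicate 1 only. Unique 50-base stretches made up 99.5% and 100% of these 2 sites, more than the 75.0% of the whole gene.

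Dsg4 had 1 and 2 thymocyte peaks and 3 and 3 brain peaks over 3 BURs. Its site chr18:20597269-20597640, 2.78 kb downstream of the start, was off any BUR and had 5.84 and 4.68 in thymocytes, 3.83 in brain replicate 1 and no peak in brain replicate 2. Dsg3, the target of antibodies in pemphigus vulgaris, had 1 and 2 brain peaks, of which chr18:20673803-20674233 was on a BUR and in both lists (9.01 and 8.48). Dsg2, the longest of the 9 genes and the desmoglein of the heart, had the fewest, with 1 BUR that no list bound and 1 peak in brain replicate 2.

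**Figure D4:**
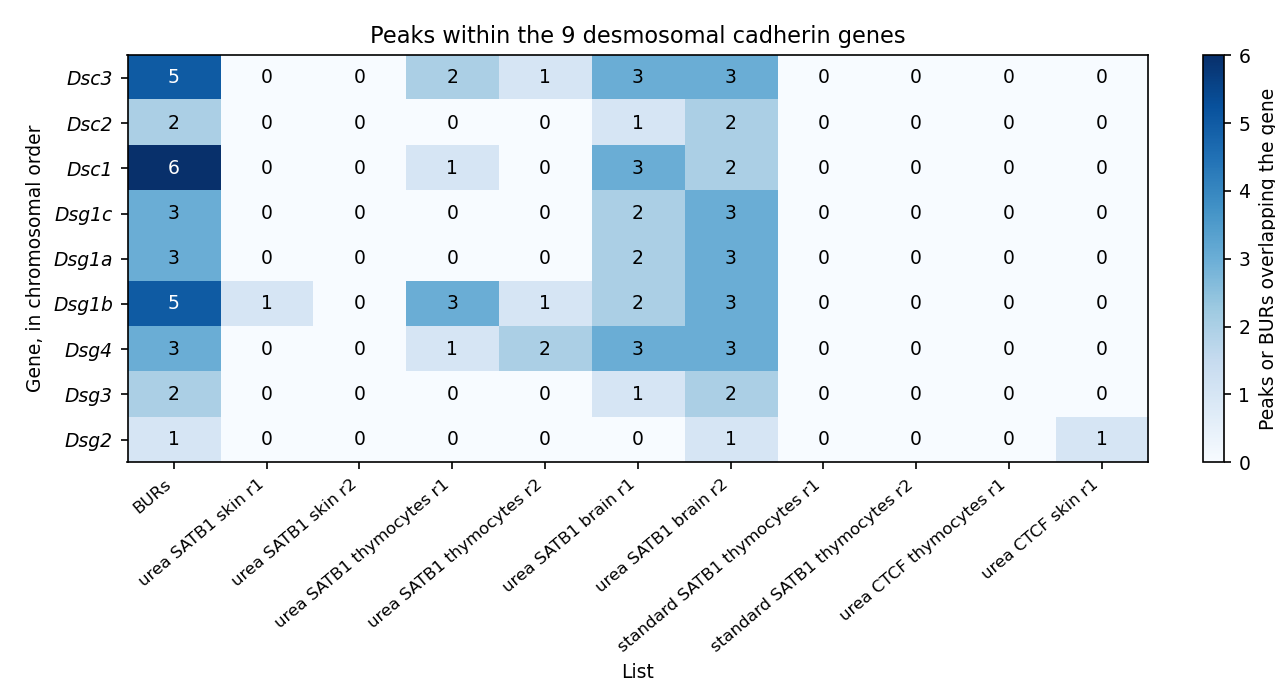
Number of peaks of each list, and of BURs, overlapping each of the 9 genes, in chromosomal order. Brain columns hold 0 to 3 peaks per gene and 17 and 22 in all, thymocyte columns 7 and 4 in all, and skin columns 1 and 0.

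None of the 9 gene starts lay inside a peak of any of the 10 ChIP lists. Starts of all protein-coding genes were inside a urea SATB1 peak of any list in 0.554% of cases, inside a standard SATB1 peak of either list in 43%, and inside a CTCF peak of either tissue in 6.29%. The median distance from a start to the nearest urea SATB1 peak over the 9 genes was 75.0 and 151.6 kb in skin, 13.9 and 18.9 kb in thymocytes and 6.96 and 6.98 kb in brain, falling as the lists grew longer. The nearest were at Dsg1b, 1.64 kb in thymocyte replicate 1 and 1.47 and 1.56 kb in brain. Dsg2 was the farthest from SATB1 in brain, at 42.4 and 32.3 kb.

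Bound BURs were also counted by position. With the window divided at the middle of the space between Dsc1 and Dsg1c, a border set after the values were seen and therefore given without a test, the desmocollin side held 40 BURs on 320.1 kb and the desmoglein side 34 on 523 kb. On the desmocollin side 7.5% and 7.5% of BURs were bound in skin, 30% and 22.5% in thymocytes and 50% and 40% in brain. On the desmoglein side it was 2.94% and 0% in skin, 8.82% and 5.88% in thymocytes and 32.4% and 29.4% in brain. Each side includes its 100 kb flank. From Dsc3 to Dsc1 alone, 0 of 23 BURs were bound in either skin list. The shares there were 26.1% and 13.0% in thymocytes and 52.2% and 34.8% in brain. The median in vitro enrichment of the BURs was 6.40 and 6.90, and 91.7% and 86.2% of 50-base stretches were unique on the desmocollin and desmoglein side. In thymocytes no SATB1 peak followed the last one in Dsg4 for 242 kb, over Dsg3, Dsg2 and Ttr, and of the 13 BURs of that stretch 4 were bound in at least 1 brain list, where 39% of all BURs were.

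BURs bound in cells had the higher median enrichment in vitro. Median in vitro enrichment was 5.72 for the 40 BURs that no list bound, 7.87 for the 18 bound in 1 tissue, 8.26 for the 13 bound in 2 and 13.9 for the 3 bound in all 3. Among all BURs on chromosomes 1 to 19, X and Y the medians were 5.29 for unbound and 10.1 for those in both skin lists, beside 5.72 and 13.9 here. These values are a description, with no test. Of 8 BURs with an in vitro enrichment of at least 12, 3 were bound in no list, where 51.9% of all such BURs were, and these included the BUR within Dsg2, with 12.4.

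**Figure D5:**
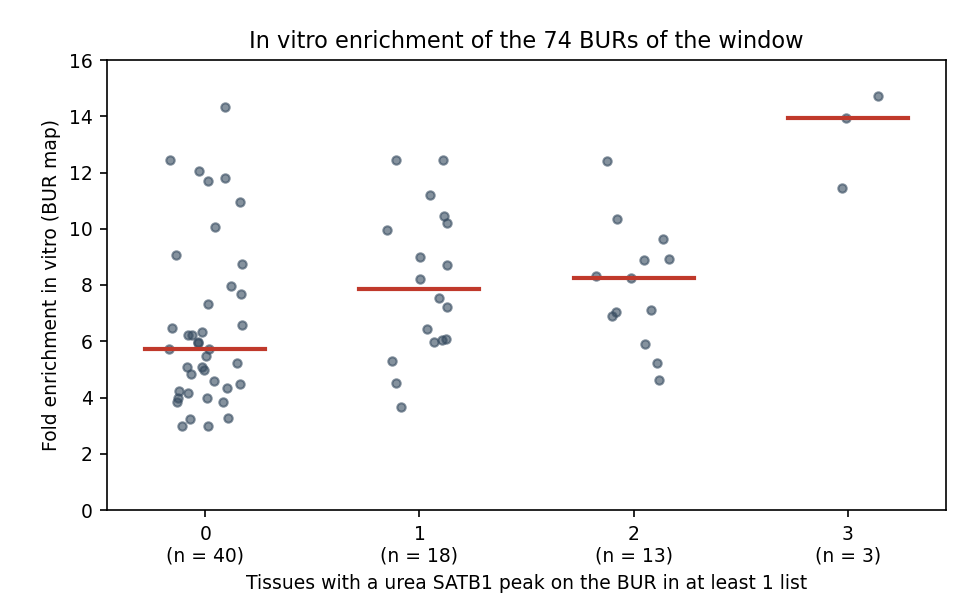
In vitro fold enrichment of the 74 BURs of the window, by the number of tissues with a urea SATB1 peak on the BUR in at least 1 list. Points are BURs, spread sideways for legibility, and lines are medians. The medians rise from 5.72 for 40 unbound BURs to 13.9 for the 3 bound in all tissues, and the unbound ones reach 14.3.

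In base composition the bound and unbound BURs had similar medians. The median share of A and T was 69.7% for the 34 BURs bound in at least 1 list and 70.8% for the 40 unbound ones, near the 70.7% of all BURs. The longest run lacking either C or G, a feature of the ATC sequence context of BURs, had a median of 41 bases in the bound, 41.5 in the unbound and 43 in all BURs. The 3 BURs bound in both skin lists had 62.7%, 66.3% and 74.8% A and T. Sites on a BUR numbered 34 and had a median enrichment of 8.91 over all lists, and 24 sites were off any BUR, at a median of 5.38 and at most 7.07. None of the latter had a skin peak, where 78.4% and 79.4% of the peaks of the whole skin lists were on a BUR. Of these 24 sites, 17 were in a single list, and their median distance to the nearest BUR was 3.74 kb.

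CTCF peaks in the window were few but not unusually so. Thymocytes had 1.19 peaks per Mb against 7.90 in the genome, and skin 7.11 against 12.2. Stretches of the same length had a median of 4 thymocyte and 8 skin peaks, and 34.3% and 42.5% of the 2992 stretches held no more than the window's 1 and 6. The only thymocyte peak, at chr18:20798485-20798771, had an enrichment of 10.9 and lay in an intron of the noncoding gene Gm16090, 25.1 kb upstream of Ttr. Skin had a peak at the same place, at 9.97, the strongest of its 6 there, at percentile 89.5 of its list. Of the skin peaks of the whole list 53.5% were also in thymocytes and of the thymocyte peaks 83.5% were in skin, so the other 5 skin peaks compare with a list in which many peaks were found in skin alone.

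The remaining skin CTCF peaks were weaker, between 3.44 and 5.76. That of 5.76, at chr18:20642568-20642926, lay between Dsg4 and Dsg3, 26.1 kb upstream of Dsg3, and touched a brain SATB1 site of replicate 1 (2.88). That of 5.49, at chr18:20725114-20725629, lay in an intron of Dsg2, 8.87 kb downstream of its start, and was the only CTCF peak inside a desmosomal cadherin gene. Over all protein-coding genes 30.5% had a CTCF peak within the gene in thymocytes and 39.1% in skin, and here it was 0 and 1 of 9. At 4.71 and 3.44, chr18:20776072-20776345 and chr18:20780605-20780878 were in introns of Gm16090, and the last, 4.69, at chr18:20097918-20098210 lay beyond the 3′ end of Dsc3. None of the 7 CTCF peaks overlapped a BUR, as did 2.90% of thymocyte and 4.29% of skin CTCF peaks genome-wide. A second thymocyte CTCF sample of the series was not analysed here, and with the 1 list per tissue used the difference between skin and thymocytes was not tested.

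Standard ChIP-seq found no SATB1 in the window in thymocytes, where urea ChIP-seq of the same cell type had 18 and 15 peaks. The standard lists held 48175 and 27147 peaks, or 18.7 and 10.5 per Mb of genome. Both were also empty over 200 kb on each side of the cluster. The nearest peaks after Dsg2 were at 264.9 and 260.2 kb, both in Trappc8, and those before Dsc3 at 330.8 and 2249.6 kb. Of 2992 stretches of the same length across the genome, 6.82% held no peak of either standard list, and of the 593 with at least 12 protein-coding genes, as many as the window, 1.35% (8) did. None of the 9 genes had a standard peak, whereas 60.6% of all protein-coding genes had one in at least 1 list.

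The other protein-coding genes of the window were Ttr, the plasma carrier of thyroid hormone and retinol, Gm10269 and B4galt6, a galactosyltransferase of glycolipid synthesis. Ttr and Gm10269 had no peak of any list within the gene. B4galt6, which runs on past the window, had 2 and 2 skin, 2 and 2 thymocyte and 3 and 3 brain SATB1 peaks over its 61.8 kb, and its skin and thymocyte peaks all lay beyond the window.

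The desmosome partners outside the cluster were counted in the same way. Among Jup, Dsp, Pkp1, Pkp2, Pkp3, Perp, Ppl, Evpl and Cdsn, 0 of 9 had a skin peak in both lists, 0 a thymocyte peak in both and 1 a brain peak in both, where the shares of all protein-coding genes were 9.53%, 20.6% and 31%. With 9 genes, and gene length not matched, nothing is read from these counts. Jup, which encodes plakoglobin, had 1 BUR and no urea SATB1 peak, and its nearest skin peak was 22.2 kb from the start in both lists. Dsp, encoding desmoplakin, the link to keratin, had 2 BURs, 1 and 1 brain peaks and 1 thymocyte peak in replicate 1. Pkp1, encoding plakophilin 1, had no BUR and no SATB1 peak in any list. A standard SATB1 peak in at least 1 list was found in 6 of the 9 partners, near the 60.6% of all protein-coding genes, among them Jup with 1 and 1. Of the classical cadherins Cdh1, Cdh2 and Cdh3, which form adherens junctions, none had a skin SATB1 peak. Cdh1, the E-cadherin of epithelia, had 4 BURs and 1 brain peak in replicate 1. Cdh2, the N-cadherin of brain, named after its values were seen, had 20 BURs, 3 and 2 thymocyte peaks and 13 and 14 brain peaks over 220.4 kb.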

How the data were processed

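The 9 genes, the partner lists and the order skin, thymocytes, brain were chosen with earlier results of these data known. Per the labels and the methods, the authors mapped 50-base single-end reads with Bowtie2 2.3.1 to NCBI37/mm9, allowing 3 mismatches in the seed and keeping unique matches, and called peaks per sample (MACS2 2.2.7, q-value 0.01). FastQC is also named. Whether an input was given to the caller is not given in the sources used here. The deposited lists give a display score (not used), the fold enrichment, which is the ratio of the summit to local background, and −log10 p-values and −log10 q-values. In those lists the −log10 p was not used. They hold no counts, so depth was not computed here, no counting interval is given and the precision is the spread between 2 lists. The replicate numbers are those of the labels. The knockout, input, Hi-C and 4C samples and the second CTCF sample were not analysed here.

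Genes came from GENCODE vM1, and AT content and uniqueness of 50-base stretches from the NCBIM37 genome. Overlaps and exact permutation tests over lists (threshold 0.05) were computed with Python 3.11.15, numpy 2.4.6, pandas 2.3.3 and numba 0.67.0, and plots with matplotlib 3.10.9. Overlap calls and tests were checked on simulated data. Genome-wide tiles had the window's length and at least 90% known bases. The genes named were all members, the other protein-coding genes of the window, and partners with a skin SATB1 peak or, as none had one, Jup, Dsp, Pkp1 and Cdh1. The peaks named were those in both skin lists, the 3 highest in both thymocyte and in both brain lists, and all CTCF peaks, and others were chosen after their values were seen. Alternatives tried were a minimum −log10 q of 5, an overlap of 50%, the summit inside the BUR, no flanks or 200 kb flanks, lists of equal size, each list left out, and permutation within replicate numbers. No sequence is printed, since the genes lie on chromosome 18.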

Additional observations from a re-analysis of the deposited data

How the results depend on the processing

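The number of SATB1 peaks a list holds limits what can be compared, and with 2 lists per tissue the test of skin against the other tissues cannot pass 0.05. The order of the tissues, 12 of 12 ordered pairs of lists, kept its direction and its side of the threshold under each alternative but one. With lists of equal size it came to 7.5 ordered pairs (p = 0.333, exact permutation test over 90 assignments), with 5.41% of BURs of the window bound in thymocytes and 5.41% in brain. Among all BURs the lists of equal size kept the order. Without each list in turn all 8 of 8 pairs were ordered (p = 0.0333, exact permutation test, the smallest possible), and the percentages ranged from 4.05 to 5.41 in skin, 14.9 to 20.3 in thymocytes and 35.1 to 41.9 in brain. The log2 difference of skin from the other tissues reversed to −0.73 in the cluster alone, where 2.54% of BURs were bound in skin, and to −0.088 without skin replicate 1, and leaving out each list gave −0.088 to 0.30. The cause was not tested. The shared CTCF peak lies in the flank, so the cluster alone held 0. The window of 200 kb flanks for standard SATB1, the values for each tissue and the gene counts under other settings were added after seeing the data. With lists of equal size 0 of 9 genes had a peak in both thymocyte or both brain lists.

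The replicate numbers are shared by the 3 tissues but mark no common animal or day in the labels. Permuting within the numbers (the replicate block) left the difference at 0.11 (p = 0.556, exact permutation test, 9 assignments) and the order at 12 pairs (p = 0.0278, the smallest of 36 assignments). Differences of replicate 1 from 2 over 2514 bins of 1 Mb correlated between tissues at −0.00979 to −0.00484, so equal numbers showed no common regional deviation. A shared day or batch without such a regional effect would not be seen by this check.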
